A study of Mus musculus with 6 samples.

Results

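*Ins1*, *Ins2*, *Iapp*, *Ucn3*, *G6pc2*, *Slc2a2* and *Ero1lb* encode insulin, peptides released with or alongside it, and proteins by which a mature β-cell handles glucose and folds proinsulin. These 7 genes were picked by symbol from the 16640 genes that every library lists. A filter on low counts left 12516 genes for testing, among them 6 of the 7 genes, while *Slc2a2* had too few counts to pass.

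Mice carry a pair of insulin genes, *Ins2*, which is the ancestral copy, and *Ins1*, a retroposed copy of it. Proinsulin folds in the endoplasmic reticulum, where oxidases such as the product of *Ero1lb* (also called *Ero1b*) drive the formation of disulfide bonds, and is then cleaved to insulin in secretory granules that also hold islet amyloid polypeptide. Maturing β-cells gain urocortin 3, the glucose transporter GLUT2 and the glucose-6-phosphatase catalytic subunit 2, and these genes are commonly used as marks of a mature state.

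RNA was sequenced from MIN6 cells, a mouse β-cell line derived from an insulinoma, on the BGISEQ-500 platform. *Thada*-activated cells had received lentiviruses for dCas9-VP64, a Cas9 that cannot cut fused to an activator, and for a guide RNA to the *Thada* promoter with MS2-P65-HSF1, which recruits further activators (the SAM system). They were selected with puromycin and then with G418, and no cloning step is given for them. Control cells carried dCas9 and a non-targeting sgRNA, likewise from lentiviruses, so both conditions are transduced cells of the same line. Each condition has 3 libraries. The study reports independent experiments for its in vitro work as a whole, without saying how these libraries map to them. The p-values given here measure the spread between these libraries.

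Throughout, the 3 values of a condition stand in the order of replicates 1, 2 and 3. A control and a *Thada*-activated library with the same number are called a pair. This is an assumption, because the paper does not say that they were grown or prepared together. The library totals were 17272834, 17166511 and 17689611 counts for control and 17727004, 17385036 and 17224631 counts for *Thada*-activated cells. Levels of a gene across libraries are given in CPM, counts brought to one library size with the TMM scaling of edgeR, and levels of different genes are put in order only in FPKM, which the authors scaled by gene length. Shares and ratios of counts describe the make-up of a library and take no account of length. The label of the activated cells was checked on *Thada* itself, which stood at 28.1, 28.9 and 17.2 CPM in control against 57.3, 56.2 and 49.1 CPM after *Thada* activation. All *Thada*-activated libraries lay above all control libraries. The β-cell label was checked on transcription factors that define these cells, and *Pdx1* had from 92.6 to 203 FPKM, *Neurod1* from 116 to 173 FPKM, *Nkx6-1* from 78.0 to 110 FPKM and *Mafa* from 52.5 to 96.8 FPKM over the 6 libraries. Among the members and these factors, *Slc2a2* alone was at or near the floor of 3 counts per library.

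In both conditions the replicate 3 library differed widely from the others. Of the 12516 tested genes, 35.9% had both replicate 3 libraries above the other 4 libraries and 35.9% had both below them. Fold changes of the tested members and medians of the gene lists are therefore given with and without replicate 3.

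*Ins2* was the gene with the most counts in every library and *Iapp* was next in every library. *Ins2* took 6.37%, 5.65% and 10.2% of the counts of the control libraries and 6.44%, 6.29% and 8.36% of those of the *Thada*-activated libraries. Its share was highest in the replicate 3 library of each condition, and the conditions overlapped. *Iapp* took 3.69%, 3.42% and 2.03% of the counts in the control libraries and 3.17%, 3.14% and 2.49% in the *Thada*-activated libraries. Its share was lowest in the replicate 3 libraries, so that the genes of 2 peptides stored in the same granules lay at opposite ends there. *Ins1* took 0.264%, 0.226% and 0.458% in the control libraries and 0.293%, 0.272% and 0.474% in the *Thada*-activated libraries, and was again highest in replicate 3. *G6pc2* took from 0.256% to 0.401% and *Ero1lb* from 0.215% to 0.272% of a library. *Ucn3* took from 0.00102% to 0.00378%.

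The exact (Clopper-Pearson) 95% intervals of these shares, which cover counting error only, had a half-width of at most 0.195% of the share for *Ins2*, 0.319% for *Iapp*, 0.996% for *Ins1*, 0.919% for *G6pc2* and 1.02% for *Ero1lb*. For *Ucn3* the half-width was up to 14.9% of the share. The differences between replicate 3 and the other libraries of a condition in *Ins2*, *Iapp*, *Ins1* and *Ucn3* were thus wider than counting error. Together the 7 genes took 10.9%, 9.97% and 13.1% of the counts in control and 10.5%, 10.2% and 11.9% in *Thada*-activated libraries. The sum was highest in the replicate 3 libraries, in which *Ins2* was higher and *Iapp* lower.

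Per length, the order of the 7 genes was the same in all 6 libraries. *Ins2* came first with from 184141 to 326226 FPKM, followed by *Iapp* with from 38202 to 68520 FPKM and *Ins1* with from 5220 to 10463 FPKM. *G6pc2* had from 1395 to 2177 FPKM, *Ero1lb* from 745.0 to 865 FPKM and *Ucn3* from 7.78 to 28.6 FPKM. *Slc2a2* came last, with at most 0.21 FPKM. The ranges of neighbours in this order did not overlap. The distance between neighbours did vary, since *Ins2* was 2.93, 2.84 and 8.54 times as high as *Iapp* in FPKM in control and 3.45, 3.39 and 5.51 times as high in *Thada*-activated libraries. The widest gap was in control replicate 3 and the next in *Thada*-activated replicate 3. *G6pc2* was from 1.87 to 2.52 times as high as *Ero1lb*.

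**Figure D1:**
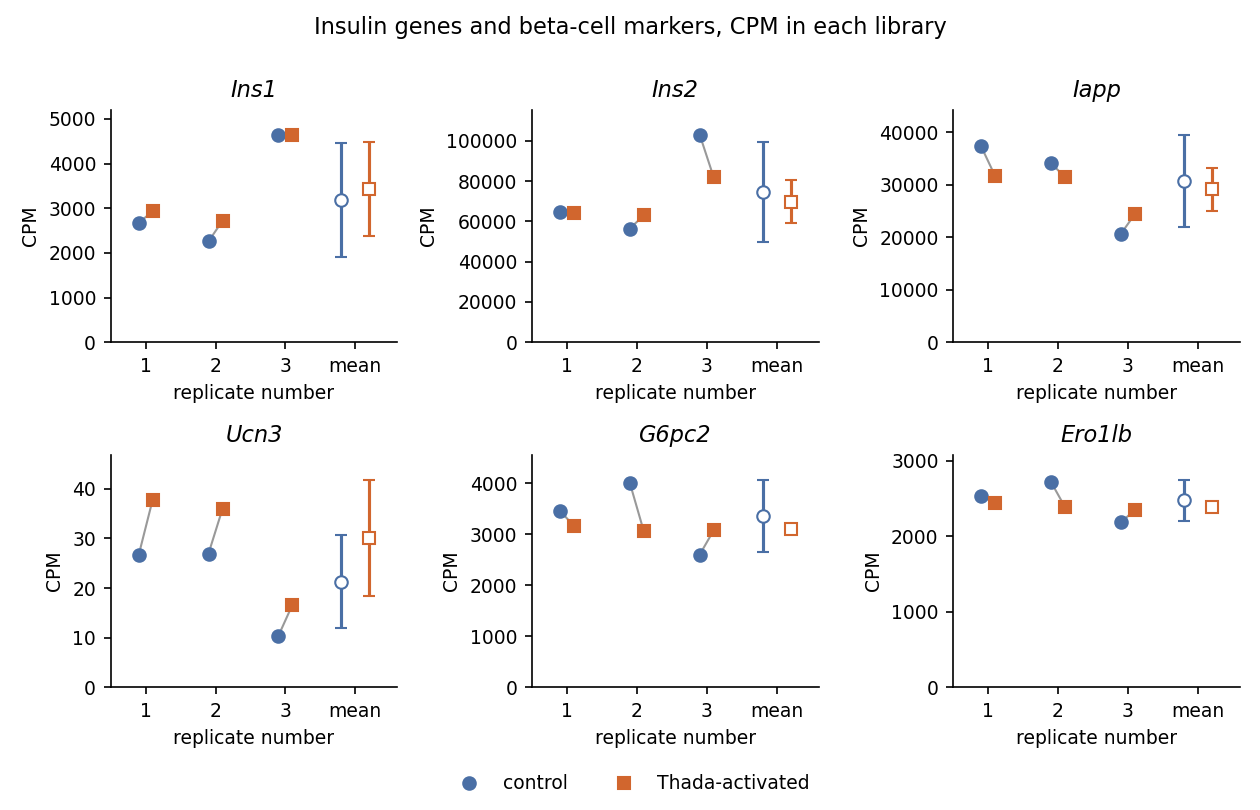
CPM (vertical axis, from 0) of the 6 tested genes by replicate number (horizontal axis) in control (circles) and *Thada*-activated (squares) libraries, with grey lines joining libraries of the same number, and open symbols with bars for the mean ± SD of 3 libraries. *Ins1* and *Ins2* are highest and *Iapp* and *Ucn3* lowest in replicate 3 of each condition, and *Ucn3* is higher in the *Thada*-activated library of every pair.

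The first question is whether *Thada* activation went with another level of the insulin genes. *Ins2* (gene ID 16334, chromosome 7 from 142678656 to 142679726, GRCm38) stood at 64432, 56429 and 103050 CPM in control against 64296, 62902 and 81917 CPM after *Thada* activation. The *Thada*-activated library was level with its control in replicate 1, higher in replicate 2 and lower in replicate 3, and the conditions overlapped. Taken over control, its log2 fold change in *Thada*-activated cells was -0.10 with a standard error of 0.29 (edgeR adjusted p = 1, in a quasi-likelihood fit with the condition alone). Without replicate 3 it was 0.075 with a standard error of 0.049 (edgeR adjusted p = 0.493), and leaving out control replicate 3 alone gave 0.21. *Ins1* (gene ID 16333, chromosome 19 from 52264297 to 52265015) stood at 2672, 2257 and 4647 CPM in control against 2928, 2718 and 4646 CPM after *Thada* activation. It was higher in the *Thada*-activated libraries of replicates 1 and 2, by 1.10-fold and 1.20-fold, and level in replicate 3.

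The log2 fold change of *Ins1* was 0.10, standard error 0.35 (edgeR adjusted p = 1). In fits without a block it was -0.006 without control replicate 1, -0.092 without control replicate 2 and -0.18 without *Thada*-activated replicate 3. Such fits break up an assumed pair, and their direction rested on single libraries, while within the assumed pairs *Ins1* was higher or level. On replicates 1 and 2 alone it was 0.20, standard error 0.083 (edgeR adjusted p = 0.325). With the replicate number as a block on the same 4 libraries, a fit added after the data were seen, it was again 0.20, standard error 0.052 (edgeR adjusted p = 0.011). The planned block on all pairs gave 0.13, standard error 0.068 (edgeR adjusted p = 0.532), and so did not pass. By correlation over genes, the numbers did not separate replicates 1 and 2. These are bulk libraries, in which fewer cells that express a gene and less of its RNA per cell cannot be told apart.

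*Iapp* (gene ID 15874, chromosome 6 from 142298425 to 142303820), which encodes islet amyloid polypeptide, a peptide released with insulin, stood at 37310, 34151 and 20650 CPM in control against 31667, 31390 and 24401 CPM after *Thada* activation. It was lower in the *Thada*-activated library in pairs 1 and 2 and higher in pair 3, and the conditions overlapped. The log2 fold change was -0.075, standard error 0.28 (edgeR adjusted p = 1), but it turned to 0.091 without control replicate 1, 0.009 without control replicate 2 and 0.038 without *Thada*-activated replicate 3. Without replicate 3 *Iapp* was lower in *Thada*-activated cells, with a log2 fold change of -0.18, standard error 0.045 (edgeR adjusted p = 0.0115). That is a small change, well within a fold of 1.5.

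*Ucn3* (gene ID 83428, chromosome 13 from 3940688 to 3945349) encodes urocortin 3, a peptide that acts on neighbouring δ-cells to restrain insulin release. It was counted 454, 463 and 181 times in control and 670, 625 and 292 times in *Thada*-activated libraries. In CPM these were 26.6, 26.9 and 10.4 in control and 37.7, 35.9 and 16.6 in *Thada*-activated libraries. *Ucn3* was higher in the *Thada*-activated library of all 3 pairs, by 1.42-fold, 1.33-fold and 1.60-fold, although *Thada*-activated replicate 3 lay below control replicates 1 and 2, so the conditions overlapped. Without a block the log2 fold change was 0.50, standard error 0.46 (edgeR adjusted p = 1). With the replicate number as a block it was 0.52, standard error 0.086 (edgeR adjusted p = 0.0337), a fold of 1.43, which is under the fold of 1.5 that a call needed. On replicates 1 and 2 alone it was 0.46, standard error 0.078 (edgeR adjusted p = 3.75e-05). Leaving out a single library moved it between 0.17, without control replicate 3, and 0.79, without *Thada*-activated replicate 3.

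*G6pc2* (gene ID 14378, chromosome 2 from 69211073 to 69227993) encodes an islet enzyme that turns glucose-6-phosphate back to glucose and so opposes glucokinase. It stood at 3458, 4006 and 2596 CPM in control against 3161, 3058 and 3073 CPM after *Thada* activation. The *Thada*-activated libraries lay close together, inside the range of the controls, and were lower than control in pairs 1 and 2 and higher in pair 3. The spread was 3353 ± 711 CPM for control and 3097 ± 56.0 CPM after *Thada* activation (SD, n = 3). The log2 fold change was -0.11, standard error 0.20 (edgeR adjusted p = 1), and 0.033 without control replicate 2. Without replicate 3 it was lower in *Thada*-activated cells, at -0.26, standard error 0.054 (edgeR adjusted p = 0.00565).

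*Ero1lb* (gene ID 67475, chromosome 13 from 12565818 to 12609533) stood at 2529, 2720 and 2184 CPM in control against 2444, 2388 and 2353 CPM after *Thada* activation. It had the same pattern as *G6pc2*, with *Thada*-activated libraries inside the range of the controls. Its log2 fold change was -0.049, standard error 0.15 (edgeR adjusted p = 1), and 0.024 without control replicate 2. On replicates 1 and 2 alone it was -0.12, standard error 0.045 (edgeR adjusted p = 0.142). Among the tested members it varied least between libraries.

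*Slc2a2* (gene ID 20526, chromosome 3 from 28697903 to 28728361) encodes GLUT2, the main glucose transporter of rodent β-cells. It was counted 1, 4 and 1 times in control and 3, 3 and 9 times in *Thada*-activated libraries. Only control replicate 2 and *Thada*-activated replicate 3 were above the floor of 3 counts, so no fold is given. Summed over libraries, 6 counts in control are 0.115 CPM of the library totals (95% exact interval of counting error from 0.0422 to 0.25 CPM). In *Thada*-activated cells 15 counts are 0.287 CPM of these totals (from 0.16 to 0.473 CPM). These intervals overlapped, and no test of the difference is given. Other glucose transporters were present, and were looked up after the low *Slc2a2* counts had been seen. *Slc2a1*, which encodes GLUT1, had 72.3, 73.6 and 31.1 CPM in control against 55.9, 64.3 and 25.4 CPM after *Thada* activation, and *Slc2a3*, which encodes GLUT3, had 27.8, 26.5 and 28.7 CPM against 21.6, 21.7 and 25.6 CPM. All *Thada*-activated libraries lay below all control libraries in *Slc2a3*, as they did in 2.7% of all tested genes, while in *Slc2a1* the conditions overlapped.

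Of the 6 tested members, 0 were called, which took an adjusted p under 0.05 and a fold over 1.5, as were 0% of all 12516 tested genes, of which 101 had an unadjusted p under 0.05. This fit also gave *Thada* an adjusted p of 1, with a log2 fold change of 1.13, standard error 0.22 (unadjusted p = 0.00196), although its conditions did not overlap. *Thada* passed with the replicate block (edgeR adjusted p = 0.00041) and in DESeq2 (adjusted p = 0.0104). An adjusted p of 1 without a block is thus no sign that a member was unchanged. DESeq2's Wald test called 5 genes, and 0 of them were members. With the replicate block, edgeR called 0.152% of the tested genes, again 0 members, and 0.224% passed the adjusted p at any fold, with *Ucn3* as the 1 member among them. On replicates 1 and 2 alone 0.545% of 12480 tested genes were called, 0 of them members, and 3.41% passed the adjusted p at any fold, among them *Iapp*, *Ucn3* and *G6pc2*. With the block on these 4 libraries 2.93% passed at any fold, and *Ins1* joined these 3 genes. Both fits rest on the spread between replicates 1 and 2, which were much closer to each other than to replicate 3. Their small p-values do not cover that wider spread. The *Thada*-activated libraries lay wholly above the control libraries for 2.7% of the tested genes and wholly below for 2.7%, and for 0 of the 6 members either way. Over the 3 pairs, 1 member had the same direction throughout, *Ucn3*, while 32.9% of all tested genes did.

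The second question is the balance between the insulin genes within a library, on which library size has no bearing. In the control libraries there were 4.15, 4.0 and 4.51 *Ins1* counts for every 100 *Ins2* counts, and in *Thada*-activated libraries there were 4.55, 4.32 and 5.67. The ratio was higher in the *Thada*-activated library of all 3 pairs and, within each condition, highest in replicate 3. The conditions overlapped, because control replicate 3 lay above *Thada*-activated replicate 2. The mean was 4.22 ± 0.263 in control and 4.85 ± 0.722 in *Thada*-activated cells (SD, n = 3), and the log2 ratio differed by 0.19 (exact permutation test, two-sided, p = 0.2, where the smallest p that 3 libraries against 3 allow is 0.1). An exact sign-flip test within pairs gave p = 0.25, the smallest that 3 pairs allow. Without *Thada*-activated replicate 3 the difference was 0.074, and on replicates 1 and 2 alone it was 0.12.

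In FPKM, which takes the lengths of the transcripts into account, *Ins1* reached 2.97, 2.83 and 3.21 for every 100 of *Ins2* in control and 3.26, 3.10 and 4.15 in *Thada*-activated libraries. The order of the libraries was that of the count ratio. The share of *Ins1* in all insulin counts was 3.98% (95% exact interval from 3.95% to 4.02%) in control replicate 1 and 4.36% (from 4.32% to 4.39%) in *Thada*-activated replicate 1. Counting error was therefore far narrower than the spread between libraries.

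**Figure D2:**
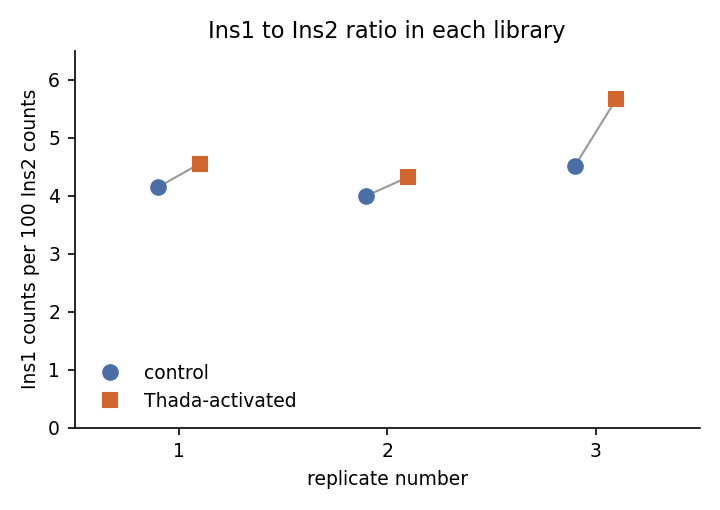
*Ins1* counts per 100 *Ins2* counts (vertical axis, from 0) by replicate number (horizontal axis) in control (circles) and *Thada*-activated (squares) libraries, with grey lines joining libraries of the same number. The *Thada*-activated library is higher in every pair, from 4.32 to 5.67 against 4.0 to 4.51 in control, and the conditions overlap.

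The counts of the insulin genes carry a limit of their own, because the genes are alike in sequence. The coding sequences are 324 nt (*Ins1*) and 330 nt (*Ins2*) without the stop codon, and 300 of 324 aligned positions are identical (92.6%), with a longest identical run of 54 nt. Of all 20-nt words in the *Ins1* coding sequence 25.9% also occur in that of *Ins2*, of 50-nt words 1.82%, and of 100-nt words 0. The deposited counts are estimates, and RSEM, which the submitters name, divides a read that matches both genes. *Ins1* and *Ins2* had whole counts in control replicates 1 and 2 and in *Thada*-activated replicate 1. In the other 3 libraries both counts were fractional, such as 80999.61 for *Ins1* and 1796192.39 for *Ins2* in control replicate 3, and their sum was a whole number in each (1877192 in that library). The level of each insulin gene, and their ratio, are uncertain to the extent that reads were divided, and how many reads matched both was not analysed here.

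To show where the coding sequences are most and least alike, the stretches of 90 aligned coding nucleotides with the fewest and the most differences are given from GENCODE M21 transcripts (GRCm38), 5′ to 3′, with differing bases in capitals. The stretch with 2 differences is nt 98 to 187 of each coding sequence, counted from the start codon, on the plus strand of chromosome 19 for *Ins1* and the minus strand of chromosome 7 for *Ins2*:
Ins1: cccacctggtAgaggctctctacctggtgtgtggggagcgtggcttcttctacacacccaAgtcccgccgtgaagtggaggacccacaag
Ins2: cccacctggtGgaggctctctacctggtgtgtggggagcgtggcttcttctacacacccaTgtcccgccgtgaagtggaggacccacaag

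The stretch with 13 differences lies just before it, at nt 8 to 97 of each coding sequence:
Ins1: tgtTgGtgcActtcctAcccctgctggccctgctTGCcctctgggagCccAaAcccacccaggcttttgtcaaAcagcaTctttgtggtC
Ins2: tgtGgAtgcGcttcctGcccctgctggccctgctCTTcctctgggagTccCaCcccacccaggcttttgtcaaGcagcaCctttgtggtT

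The last question is how replicate 3 compares with replicates 1 and 2. These differences are a description with no test, taken on log2 CPM within each condition. *Ins1* was 1.89-fold higher in replicate 3 than in the mean of replicates 1 and 2 in control and 1.65-fold higher in *Thada*-activated cells. *Ins2* was 1.71-fold higher in control and 1.29-fold higher in *Thada*-activated cells. For both insulin genes the 2 replicate 3 libraries lay above all other 4 libraries, and the difference was wider in control cells. *Iapp* was 1.73-fold lower in control and 1.29-fold lower in *Thada*-activated cells, the mirror image of *Ins2*. *Ucn3* showed the widest difference among the members, 2.58-fold lower in control and 2.22-fold lower in *Thada*-activated cells. Both replicate 3 libraries lay below the other 4 for *Iapp* and *Ucn3*.

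*G6pc2* and *Ero1lb* differed mainly in control cells. *G6pc2* was 1.43-fold lower in control replicate 3 but 1.01-fold lower in *Thada*-activated replicate 3, which lay among the other libraries. *Ero1lb* was 1.20-fold and 1.03-fold lower, and in CPM both replicate 3 libraries lay just below the other 4. That place depends on the scaling, since *Thada*-activated replicate 3 lay above *Thada*-activated replicate 2 in the share of the library (0.2402% against 0.2389%) and above 3 of the other 4 libraries in FPKM. Counted in CPM over the 6 tested members, 2 were above in both replicate 3 libraries and 3 below, 1 of them *Ero1lb*, beside 35.9% of all tested genes either way, so that lying apart in replicate 3 was common to most genes and not particular to these. In size, averaged over the conditions, the log2 difference of -1.26 for *Ucn3* was wider than that of 92.8% of the tested genes, 0.82 for *Ins1* wider than 80.9%, -0.58 for *Iapp* wider than 67.4% and 0.57 for *Ins2* wider than 66.7%. Those of *G6pc2* (-0.27) and *Ero1lb* (-0.15) were wider than 37.1% and 22.2%.

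**Figure D3:**
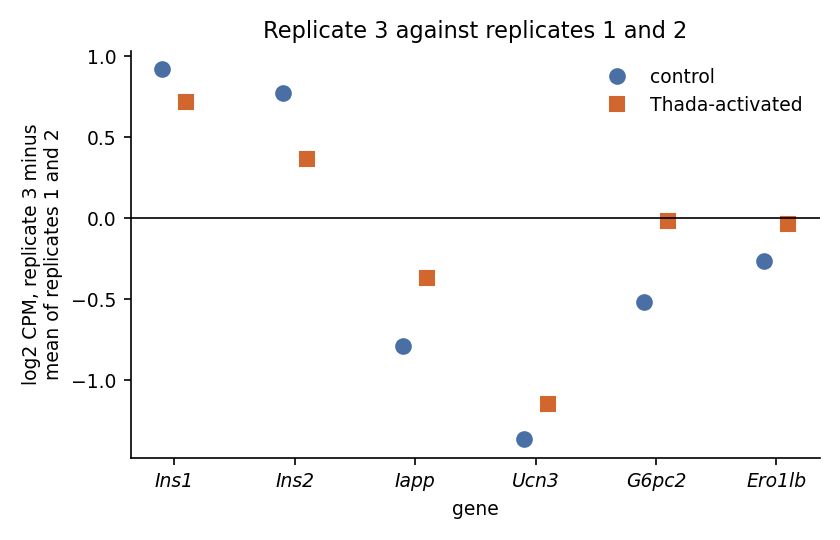
Log2 CPM of replicate 3 minus the mean of replicates 1 and 2 (vertical axis) for the 6 tested genes (horizontal axis) in control (circles) and *Thada*-activated (squares) cells. *Ins1* and *Ins2* lie above 0 and the other 4 below it, and for every gene the *Thada*-activated value lies closer to 0 than the control value.

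The contrast between insulin and its companion genes also shows in the ratio of counts within a library. There were 1.73, 1.65 and 4.99 *Ins2* counts for each *Iapp* count in control and 2.03, 2.0 and 3.36 in *Thada*-activated libraries. The ratio was higher in the *Thada*-activated library of pairs 1 and 2 and lower in that of pair 3. Over the 6 libraries, which fall into replicate 3 and the rest, the log2 CPM of *Ins2* followed that of *Ins1* (Pearson r of 0.94, a description over 6 points) and ran opposite to that of *Iapp* (r of -0.94), while *G6pc2* and *Ero1lb* ran together (r of 0.99).

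The genes whose log2 CPM was most like that of each member were sought among 9738 tested genes with a mean of at least 10 CPM, by Pearson r over the 6 libraries. Those most like *Ins1* were *Slc5a5*, *Mrps16* and *Surf1* (r of 0.9981, 0.9979 and 0.9968), and those most like *Ins2* were *Dennd3*, *Zswim1* and *Mapk7* (r of 0.9996, 0.9993 and 0.9987). *Msi2*, *Elac2* and *Denr* were most like *Iapp*, and *Sphk2*, *Pax4* and *Greb1l* most like *Ucn3*, all with an r of 0.996 or more. *Ero1lb* was the gene most like *G6pc2*, followed by *Jrkl* (r of 0.99), and *G6pc2* the gene most like *Ero1lb*, followed by *Tasp1* and *Jrkl* (r of 0.99 each). The 6 points share the gap between replicate 3 and the other libraries. *Pax4*, a transcription factor of β-cell development, had 12.01, 10.6 and 1.95 CPM in control against 20.9, 18.4 and 4.21 CPM after *Thada* activation. Like *Ucn3* it was higher in the *Thada*-activated library of every pair. It was picked for its likeness to *Ucn3* over the same libraries, so this shared direction is no separate observation.

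Other genes that act with the members were described by list, with each count beside that over all 12516 tested genes, of which 6093 had a log2 fold change above 0, 4495 had both replicate 3 libraries above the other 4 and 4493 had both below. Without a block 0 genes of any list were called, and with the replicate block 1 was, *Pax4*. Further genes are named from each list by their mean CPM, which takes no account of gene length and so gives no order of levels between genes. Among 20 tested transcription factors of the insulin genes, 17 had a log2 fold change above 0, with a median of 0.095 beside -0.004 over all tested genes. The median was 0.075 on replicates 1 and 2 alone, but -0.010 without control replicate 3 and -0.013 without *Thada*-activated replicate 2. Without a block its direction thus rested on single libraries, while with the replicate block the median was 0.099. In replicate 3 it was 11 of them that lay below the other libraries and 3 above, while both insulin genes lay above. *Neurod1*, *Pax6* and *Mlxipl*, a glucose-responsive factor, had log2 fold changes of 0.090, 0.12 and 0.10 between the conditions. *Mlxipl* was lowest in replicate 3, with 131 CPM against 403 and 345 CPM in control and 159 CPM against 365 and 418 CPM in *Thada*-activated cells.

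Of 22 tested genes for proinsulin folding and processing, the list to which *Ero1lb* is closest, 16 had a log2 fold change below 0, with a median of -0.052, and 16 lay below in both replicate 3 libraries against 5 above. The median was -0.063 on replicates 1 and 2 alone, 0.038 without *Thada*-activated replicate 3 and -0.054 with the replicate block. The log2 fold change was 0.070 for *Chga*, which encodes a granule protein, -0.054 for *Cpe*, a carboxypeptidase that trims prohormones, and 0.056 for *Pcsk2*, a prohormone convertase. Proinsulin transcripts were thus highest in libraries in which most of the genes that fold and process it were lower. Of 24 tested genes for glucose sensing and secretion, 15 had a log2 fold change above 0, with a median of 0.058, and 15 lay below in replicate 3. The median was -0.004 on replicates 1 and 2 alone and -0.083 without control replicate 3, and it was also below 0 without *Thada*-activated replicate 1 or 2, so it gives no direction. *Abcc8*, which encodes the sulfonylurea receptor of the ATP-sensitive potassium channel, had 1674, 1532 and 302 CPM in control against 1543, 1656 and 430.1 CPM after *Thada* activation. *Syt7*, which acts in granule fusion, had a log2 fold change of 0.30.

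Of 22 tested genes from a list of other maturity genes, which shares members with the lists above, 16 had a log2 fold change above 0, with a median of 0.095, and 11 lay below in replicate 3. The median was 0.064 on replicates 1 and 2 alone but -0.091 without control replicate 3, and it was also below 0 without *Thada*-activated replicate 1 or 2. With the replicate block it was 0.147. *Ptprn* and *Ptprn2*, which encode granule membrane proteins, had log2 fold changes of -0.035 and 0.078. Of the 9 tested genes of immature or dedifferentiated β-cells, 7 had a log2 fold change above 0, with a median of 0.11 (0.16 on replicates 1 and 2 alone, and from 0.046 to 0.301 with 1 library left out), and 4 lay above and 3 below in replicate 3. *Cck*, *Npy* and *Cd81* had log2 fold changes of -0.24, 0.11 and 0.13. *Pax4* was called with the replicate block, with a log2 fold change of 0.84, standard error 0.11 (edgeR adjusted p = 0.00929). Of 10 tested genes that mature β-cells normally keep silent, 8 had a log2 fold change below 0, and 6 lay above in replicate 3. The median was -0.071 (-0.067 on replicates 1 and 2 alone, 0.105 without control replicate 3, -0.049 with the replicate block). *Ldha*, which encodes lactate dehydrogenase A, had 844 and 902 CPM in control replicates 1 and 2 and 148 CPM in control replicate 3, and 773, 759 and 174 CPM in *Thada*-activated libraries. *Oat* and *Hk1* had log2 fold changes of -0.12 and -0.046.

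Markers of other cells were summed to set them beside the members. Of 28 such genes 21 were listed, and they summed to 1643, 1518 and 846 CPM of the library totals in control and 1653, 1633 and 1047 CPM in *Thada*-activated libraries. Most of the sum was *Ttr*, an α-cell marker that β-cells also express, with *Krt7*, of duct cells, and *Sst*, of δ-cells, giving most of the rest. The sum was lowest in the replicate 3 libraries, but the types did not move together. The summed markers of PP and ε-cells, of fibroblasts and of endothelial cells were highest in the replicate 3 libraries. In each of these sums the rise came mainly from 1 gene, *Ppy*, *Col1a1* and *Pecam1* in turn. *Col1a2*, also of fibroblasts, was lowest in control replicate 3. Of the 13 tested markers 4 lay above in both replicate 3 libraries and 5 below. Of the 21 genes 6 were at or under 3 counts in every library, namely *Hhex*, *Ghrl*, *Cel*, *Amy2a5*, *Sox9* and *Cdh5*. *Gcg*, which defines α-cells, had from 241 to 382 counts. Acinar markers summed to at most 0.113 CPM and endothelial markers to at most 1.24 CPM. Of the tested markers 12 had a log2 fold change above 0, with a median of 0.34 (0.23 on replicates 1 and 2 alone), and 0 were called. The markers above that median were scarce, with condition means of at most 7.72 CPM. *Ttr*, *Krt7* and *Sst*, which made up most of the sum, had log2 fold changes of 0.077, 0.306 and -0.093. The part of other cell types in the values of the members was not tested.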

How the data were processed

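RNA-seq libraries of 3 control and 3 *Thada*-activated MIN6 samples were grouped by their labels. Per the submitters' processing notes, Bowtie2, RSEM and DESeq2 were used on GRCm38, with no versions given. The authors deposited an estimated count (expected count) for each of 16640 genes per library, not normalized, of which from 91.1% to 92.0% were exactly whole as deposited, and FPKM values scaled by gene length and library. The FPKM values were read from the authors' series table, of which 1 broken line was skipped, and its fold changes and p-values from DESeq2 were not used.

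Counts were rounded and analysed in R 4.3.3 with edgeR 4.0.16 (filterByExpr, TMM, robust quasi-likelihood test, the condition alone in the model). The standard errors of edgeR fits were derived, as the size of the log2 fold change over the square root of its F statistic. Calls needed a fold change over 1.5 and a p under 0.05 after Benjamini-Hochberg adjustment over all tested genes. Positions come from RefSeq (GRCm38.p6), in which all 7 genes were matched by gene ID. The steps were tested on simulated data. The floor was 3 counts per library, from 0.169 to 0.175 CPM.

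Named genes are the members, *Thada*, the 3 tested genes with the highest mean CPM and any called gene of each list, and the 3 genes most like each member. Markers of β-cells and of other cell types are also named, to check the label, describe the sums and give those at the floor. *Slc2a1* and *Slc2a3* were added. Members and lists were chosen with earlier results of these data known.

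Pairing the libraries by replicate number was an assumption, since the paper does not link any control culture to a *Thada*-activated one. The deviations of same-numbered libraries from their condition means correlated over genes with 0.667, 0.671 and 0.869. Crossing replicates 1 and 2 gave higher values than matching them, 0.705 and 0.726. With replicate 3 far from the others in each condition, the deviations of replicates 1 and 2 correlate whatever their pairing. The correlations thus set replicate 3 apart from the rest, but they cannot decide how replicates 1 and 2 should be matched. Within a condition no libraries were duplicates by the chi-square of their counts, but replicates 1 and 2 were close. Per degree of freedom it was 4.3 between control replicates 1 and 2 and 1.81 between *Thada*-activated replicates 1 and 2. Against replicate 3 it was from 89.8 to 127. Whether replicates 1 and 2 are separate cultures is not stated. Alternatives were DESeq2 1.42.0, limma 3.58.1 on log2(FPKM + 1) and log2(FPKM + 0.1), other library totals and filters, the replicate block and left-out libraries. Some genes that the rule for named genes selects are not reported here.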

Additional observations from a re-analysis of the deposited data

Results flagged for a closer look

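In *Iapp*, *G6pc2* and *Ero1lb* the *Thada*-activated library lay below its control in pairs 1 and 2 and above it in pair 3. In log2 CPM the difference of *Iapp* was -0.18 on average in replicates 1 and 2 and 0.24 in replicate 3. For *G6pc2* it was -0.26 and 0.24, and for *Ero1lb* -0.12 and 0.11. These differences between the pairs were not tested, since replicate 3 is a single pair. Of all tested genes, 25.3% had pairs 1 and 2 on one side and pair 3 on the other.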

How the results depend on the processing

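The count of called genes was 0 under the other scalings, filters and limma fits, without a fold minimum and in each fit that leaves out a library. It was 5 by DESeq2's Wald test, 19 with the replicate block and 68 on replicates 1 and 2 alone. Among fits added after the data were seen, the block on replicates 1 and 2 alone gave 70, and the block with library totals only, with totals without the members and with totals without the 20 top genes gave 20, 20 and 22.

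Over the fits that leave out 1 library, the log2 fold change ranged from -0.18 to 0.48 for *Ins1*, -0.26 to 0.21 for *Ins2*, -0.29 to 0.091 for *Iapp*, -0.27 to 0.033 for *G6pc2* and -0.13 to 0.024 for *Ero1lb*, each changing sign, and from 0.17 to 0.79 for *Ucn3*. On replicates 1 and 2 alone *Ins2* turned to 0.075 (0.078 with the block), and *Iapp* (-0.18, with the block -0.18), *G6pc2* (-0.26, with the block -0.26) and *Ucn3* (0.46, with the block 0.46) passed the adjusted p, as did *Ins1* with the block (0.20). *Ucn3* also passed with the replicate block on all pairs (0.52) and with the block on the other totals (0.54, 0.53 and 0.53). The fits that leave out 1 library had no block. The block brought no other member past the adjusted p, and no member was called in any of these fits. The cause of these changes was not tested. The *Ins1* to *Ins2* ratio kept its direction, with a log2 difference from 0.074 to 0.27.

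The differences of replicate 3 kept their direction in every alternative that was run. In control cells alone they were 0.77 for *Ins2*, -0.79 for *Iapp*, -1.37 for *Ucn3*, -0.52 for *G6pc2* and -0.26 for *Ero1lb*, and in *Thada*-activated cells alone 0.365, -0.37, -1.15, -0.017 and -0.038. With totals without the members *Ucn3* was at -1.22, and in FPKM *Ero1lb* was at -0.037. Medians of the lists changed sign with single libraries left out in 5 of 7 lists, all but those of immature β-cells and of other cell types. Few counts limit *Slc2a2*, for which no fold is given, and 3 libraries per condition, of which 1 stands apart, limit the rest.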
